A study of Mus musculus with 6 samples.

Results

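The genes described here are 35 interferon-stimulated genes of the mouse, followed in liver RNA from 6 C57BL/6 mice. They are the rows of the expression tables whose gene symbol is on a list of 35 symbols, of 54320 genes in all. Of these, 25 are responders to type I interferon and 10 are known mainly as responders to interferon gamma. All 35 had a mean of at least 0.5 FPKM (fragments per kilobase of gene and per library size) over the 6 libraries, the limit for testing, which 13787 genes passed.

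Type I interferons signal through the receptor IFNAR and the kinases JAK1 and TYK2 to a complex that includes STAT2 and IRF9 and binds the interferon-stimulated response element (ISRE) in the promoters of its targets. Interferon gamma signals through its own receptor to the gamma-activated site (GAS) in promoters, and it induces the transcription factor IRF1. The products of the target genes block viral replication, sense foreign nucleic acid, mark intracellular parasites and present antigen. Many genes respond to both interferons, so the classes are a convention. In the liver, hepatocytes and resident immune cells both respond to interferons.

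Of the 6 mice, 3 carried loxP-flanked alleles of the gene for HuR (Elavl1), an RNA-binding protein, on both chromosomes (HuR flox/flox, called flox). The other 3 carried the same alleles with 1 copy of an albumin-promoter Cre transgene (HuRflox/flox Alb-Cre+/-, labelled HKO). This transgene is meant to act in hepatocytes, and in which cells it acted here was not tested. Cre was present only in the animals labelled HKO, so the effects of Cre itself and of losing HuR cannot be told apart. Feeding with an MCD diet, as the labels name it without spelling it out, lasted 3 weeks in both groups, and age at death was 11 weeks. There was no group on another diet, so no value here measures the diet. The comparison asks which liver transcripts depend on HuR in hepatocytes.

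The libraries held 16769082 to 20633215 reads assigned to genes. Elavl1 did not bear out the labels, with 4.28 to 5.77 FPKM in HKO against 2.36 to 3.51 FPKM in flox, so directions below refer to the libraries as labelled. Hepatocyte markers were abundant in every library (summed level of 5 markers 43715 to 57433 FPKM). Flox 2 stood apart, with reads in 16608 genes against 19920 to 22067 in the others, and the flox libraries were spread more widely than those labelled HKO. For 89.2% of all tested genes, and for 32 of the 35 members, the range over the flox libraries was the wider one.

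The promoters of many members, but not of all, hold a core of the ISRE or GAS. The RefSeq promoter table (build GRCm38.p6; 250 bases before to 50 after the start of each gene) held 25 of the 35 members. Iigp1, Ifi27l2a, Dhx58, Oas2, Ifi27, Parp14, Mx2, Zbp1, Usp18 and Mx1 were not among them. The ISRE core was searched on both strands as GAAA, any 2 bases and GAAA again, and the GAS core as TTC, any 3 bases and GAA, which reads the same on both strands. The ISRE core was found in 14 of the 25 genes (56.0%) and in 3.99% of the 27025 genes with a window. The GAS core was found in 7 of the 25 (28%) and in 9.55% of all. By class, the ISRE core was found in 9 of 16 type I and 5 of 9 gamma-type members, and the GAS core in 3 of 16 and 4 of 9. The windows below belong to the 3 type I and 2 gamma-type members with a core whose difference between the groups had the smallest p. Capitals mark the cores. In Bst2, which encodes tetherin, a membrane protein that holds budding virus at the cell surface, 2 overlapping ISRE cores start 130 and 124 bases before the gene start and overlap a GAS core (chr8:71537423-71537722, minus strand). In Ddx58 the core lies on the other strand, just after the start (chr4:40239776-40240075, minus strand). In Oas1a 2 overlapping ISRE cores lie 20 and 14 bases before the start, with a GAS core further upstream (chr5:120907476-120907775, minus strand). Psmb8 has a GAS core only (chr17:34197945-34198244, plus strand), and Igtp has a GAS core followed by an ISRE core (chr11:58199306-58199605, plus strand). The windows of Irf7, Tap1, Xaf1, Psmb9, Ifi44, Oasl1, Irf9 and Oasl2 held neither pattern.
Bst2: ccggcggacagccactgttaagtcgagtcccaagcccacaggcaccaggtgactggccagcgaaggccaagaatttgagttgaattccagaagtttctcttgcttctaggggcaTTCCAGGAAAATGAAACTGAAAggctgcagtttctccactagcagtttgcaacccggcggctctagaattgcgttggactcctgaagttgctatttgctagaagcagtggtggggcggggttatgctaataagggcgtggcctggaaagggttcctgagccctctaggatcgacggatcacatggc
Ddx58: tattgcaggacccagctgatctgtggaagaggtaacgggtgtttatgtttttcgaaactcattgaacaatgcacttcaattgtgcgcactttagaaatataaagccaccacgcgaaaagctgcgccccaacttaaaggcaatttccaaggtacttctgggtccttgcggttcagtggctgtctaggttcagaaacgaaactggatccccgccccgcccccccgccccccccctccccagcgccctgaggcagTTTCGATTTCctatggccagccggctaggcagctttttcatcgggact
Oas1a: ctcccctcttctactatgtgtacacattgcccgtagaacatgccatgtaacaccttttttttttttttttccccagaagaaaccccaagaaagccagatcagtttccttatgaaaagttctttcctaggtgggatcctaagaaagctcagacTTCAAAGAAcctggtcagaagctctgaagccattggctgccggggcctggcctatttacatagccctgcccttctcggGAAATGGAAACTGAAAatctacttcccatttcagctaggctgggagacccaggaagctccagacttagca
Psmb8: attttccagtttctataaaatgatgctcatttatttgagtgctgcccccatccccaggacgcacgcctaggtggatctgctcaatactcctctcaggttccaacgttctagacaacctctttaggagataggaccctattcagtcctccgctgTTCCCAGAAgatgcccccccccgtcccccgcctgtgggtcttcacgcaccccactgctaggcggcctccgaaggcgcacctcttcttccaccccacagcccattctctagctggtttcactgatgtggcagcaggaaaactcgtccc
Igtp: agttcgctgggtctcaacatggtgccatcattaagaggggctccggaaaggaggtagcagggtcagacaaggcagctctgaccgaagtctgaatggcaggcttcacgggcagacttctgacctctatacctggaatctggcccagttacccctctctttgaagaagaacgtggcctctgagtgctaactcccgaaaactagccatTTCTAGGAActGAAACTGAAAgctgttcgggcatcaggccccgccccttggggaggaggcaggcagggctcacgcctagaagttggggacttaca

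Levels were compared between the groups on the log2(FPKM + 0.5) scale with limma, a linear model with moderated variances, over all 13787 genes. No member passed the threshold of 0.05 after Benjamini-Hochberg adjustment, as for nearly all genes: 0.0145% were called. At an unadjusted p under 0.05, 7 of the 35 members were lower in the libraries labelled HKO, against 10.8% of all genes. These were Irf7, Zbp1, Ifi27, Bst2, Dhx58 and Xaf1 among the 25 type I members and Tap1 among the 10 gamma-type members. In the other direction, 1 member, Ddx58, was higher, against 10.1% of all genes. The values of the groups did not overlap for 8 members that were lower (16.7% of all genes) and 1 that was higher (15.3%). For those 9 the exact two-sided permutation test of 3 against 3 libraries gave 0.1, the smallest p it allows. Of the fold changes, 24 of 35 were below 0 (17 of 25 type I, 7 of 10 gamma-type), against 50.1% of all genes. With equal FPKM totals 16 of 35 were below 0 (30.1% of all genes). Under that scaling 3 members were lower (Ifi27, Irf7 and Zbp1; 2.26% of all genes) and 3 higher (Ddx58, Parp14 and Stat2; 23.6%) at an unadjusted p under 0.05. All genes then split into 311 lower and 3258 higher, against 1484 and 1393 as deposited.

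The median log2 fold change, HKO minus flox, was -0.32 over the members, -0.27 over the type I and -0.37 over the gamma-type members, against -0.0018 over all genes. These medians became 0.065, 0.12 and 0.033 when the libraries were scaled to equal FPKM totals, which moved the median of all genes to 0.34, so relative to all genes they were -0.28, -0.22 and -0.31. The summed level of the members was 678, 934 and 536 FPKM in flox 1, 2 and 3, against 350, 416 and 401 FPKM for HKO 1, 2 and 3. In both classes the sum of every flox library lay above that of every library labelled HKO. The total over all genes separated in the same way, at 454792 to 553124 FPKM in flox against 350134 to 402169 FPKM in HKO. The direction of the difference was thus not particular to the members, though the type I sums differed by more, relative to their level, than the total. The type I sums were 401 to 816 FPKM in flox against 277 to 317 FPKM in HKO, while the gamma-type sums were 110 to 136 FPKM and 72.9 to 99.1 FPKM. A few abundant members carry these sums, Bst2, Ifi27 and Ifi27l2a in the first class and Iigp1, Igtp and Psmb8 in the second. The mean of Iigp1 was 47.1 FPKM in flox and 45.8 FPKM in HKO, so it added little to the difference. That of Psmb8 was 21.0 and 6.62 FPKM, and in flox 2 it was the most abundant gamma-type member (38.8 FPKM). These are whole livers, in which fewer cells of a type and less RNA per cell cannot be told apart.

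**Figure D1:**
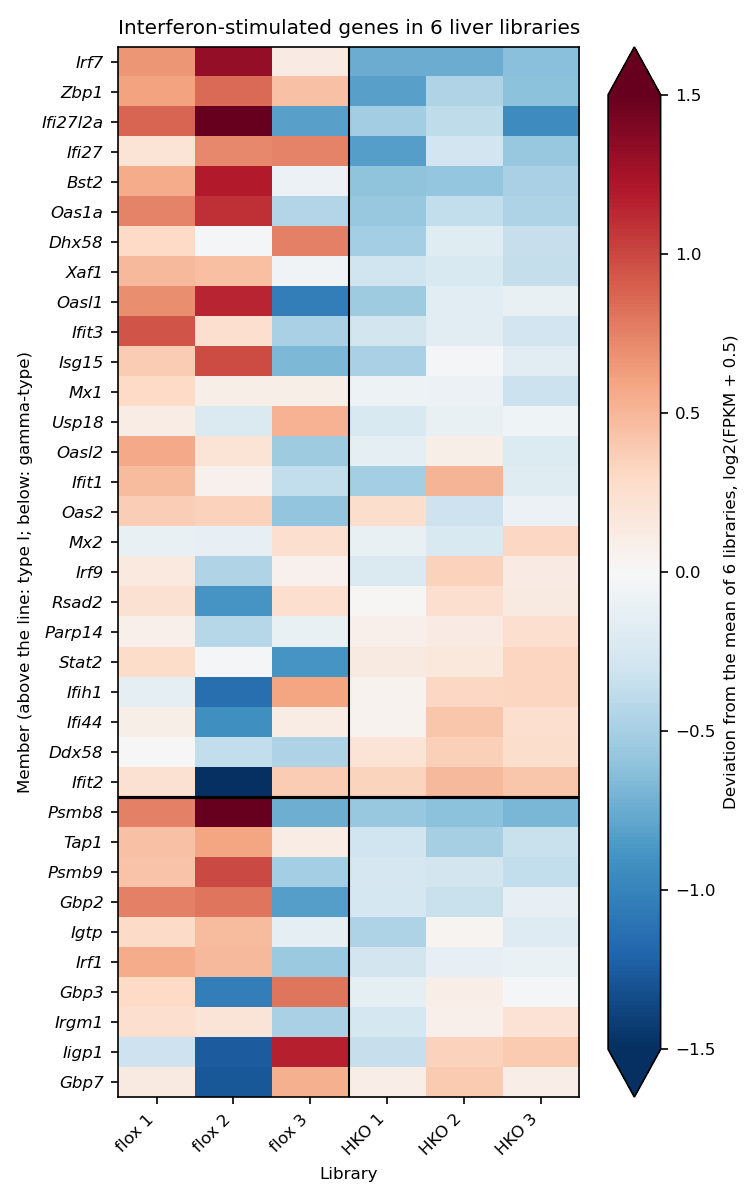
Level of each of the 35 members (rows) in the 6 libraries (columns), as the deviation from the mean of the libraries on the log2(FPKM + 0.5) scale; members above the horizontal line are type I and those below it gamma-type, each ordered by fold change. Flox 1 and 2 are high for most members in the upper part of each block, flox 3 is high for some of them and low for others, and flox 2 is low for Ifit2, Ifih1, Gbp3, Gbp7 and Iigp1.

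Of the transcription factors among the members, the groups separated for Irf7 (chr7:141262706-141266481, minus strand, protein-coding), the regulator that amplifies type I interferon production. Flox 1, 2 and 3 held it at 28.2, 44.8 and 19.3 FPKM, against 10.3, 10.3 and 11.3 FPKM for HKO 1, 2 and 3. The flox mean was 30.8 ± 13.0 (SD, n = 3) and the HKO mean 10.6 ± 0.551 FPKM (SD, n = 3), a 2.89-fold difference. The groups did not overlap, and the libraries labelled HKO were nearly equal while flox varied more than 2-fold. The log2 fold change was -1.41 (SE 0.32, limma adjusted p = 0.160, 0.00067 to 0.526 over the alternative settings). Irf1, Stat2 and Irf9 gave no such separation. Irf1, the factor induced by interferon gamma, was at 10.9, 10.4 and 4.79 FPKM in flox against 5.93, 6.64 and 6.72 FPKM in HKO. Flox 1 and 2 were thus above, and flox 3 below, every library labelled HKO. Stat2 and Irf9, which belong to the ISRE-binding complex, had fold changes above 0. Stat2 was at 15.1, 12.2 and 6.48 FPKM in flox against 13.6, 13.8 and 15.6 FPKM in HKO (log2 fold change 0.41, SE 0.32). Irf9 was at 7.67, 4.91 and 7.20 FPKM in flox against 5.83, 8.88 and 7.54 FPKM in HKO (0.16, SE 0.26). In both the groups overlapped, and their adjusted p in limma were 0.459 for Stat2 and 0.713 for Irf9.

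Sensors of foreign nucleic acid went in both directions. Zbp1 (chr2:173206612-173218923, minus strand, protein-coding), a sensor of Z-form nucleic acid that can start necroptosis, had the smallest p of the members. It was at 6.92, 8.29 and 6.10 FPKM in flox against 2.26, 3.06 and 2.67 FPKM in HKO, from 160 to 471 reads per library. No flox value came near the HKO range, and the means were 7.10 ± 1.11 and 2.66 ± 0.398 FPKM (SD, n = 3 each). The log2 fold change was -1.26 (SE 0.22, limma adjusted p = 0.137, 0.00067 to 0.526 over the alternatives). Dhx58, which encodes LGP2, a helicase that regulates RNA sensing, was at 4.27, 3.32 and 6.08 FPKM in flox against 2.24, 2.94 and 2.57 FPKM in HKO. Its groups did not overlap either, and the log2 fold change was -0.68 (SE 0.26). It overlaps Dhx58os by 2637 bases, and reads of the pair may be mixed. Ddx58, which encodes the RNA sensor RIG-I, was the reverse case, with 4.21, 3.14 and 2.93 FPKM in flox against 4.94, 5.52 and 5.17 FPKM in HKO. The difference was 0.55 on the log2 scale (SE 0.21, limma adjusted p = 0.221), and it was 0.31 once each library's trend with gene length was removed. Ifih1, which encodes MDA5, a sensor of long double-stranded RNA, was at 2.19 FPKM in flox 1, 0.860 FPKM in flox 2 and highest in flox 3, on both sides of the HKO range of 2.60 to 3.22 FPKM. The 3 RNA helicases thus did not move together, and their differences from one another were not tested.

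Among the abundant effectors of the type I class, the groups separated for Bst2 and Ifi27 and overlapped for Ifi27l2a. Bst2 (chr8:71534255-71537456, minus strand, protein-coding), whose promoter is shown above, was at 258, 403 and 165 FPKM in flox against 116, 118 and 126 FPKM in HKO. The groups did not overlap, and the log2 fold change was -1.11 (SE 0.34, limma adjusted p = 0.193, 0.000713 to 0.526 over the alternatives). Ifi27 (chr12:103434211-103440239, plus strand), a small membrane protein of mitochondria and the nuclear envelope, was at 69.9, 99.7 and 102 FPKM in flox against 34.0, 49.5 and 40.7 FPKM in HKO. Here flox 3 was the highest library, unlike in most other members with low p, and the log2 fold change was -1.11 (SE 0.25). Its neighbour Ifi27l2a (chr12:103442167-103443680, minus strand) was at 62.4, 119 and 19.2 FPKM in flox against 23.5, 26.0 and 17.4 FPKM in HKO. Flox 1 and 2 were far above the libraries labelled HKO and flox 3 was among them, so the log2 fold change of -1.23 had an SE of 0.62. Xaf1, which encodes a pro-apoptotic partner of XIAP, was at 2.73, 2.66 and 1.73 FPKM in flox against 1.37, 1.48 and 1.30 FPKM in HKO, without overlap (log2 fold change -0.59, SE 0.23).

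**Figure D2:**
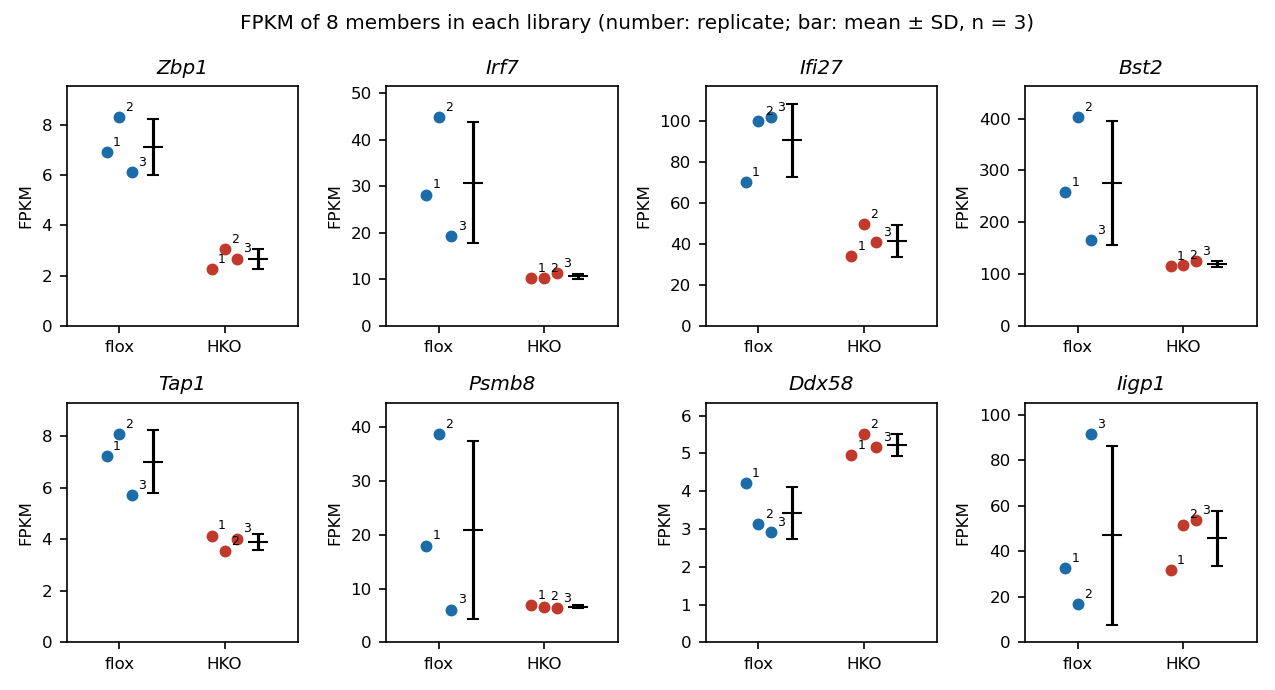
FPKM of 8 members in each library (points, numbered by replicate) with the mean and SD of each group (n = 3). Zbp1, Irf7, Ifi27, Bst2 and Tap1 do not overlap and are lower in HKO, Ddx58 does not overlap and is higher, and for Psmb8 and Iigp1 the flox libraries lie on both sides of the HKO values.

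The oligoadenylate synthetases, which activate RNase L when they bind double-stranded RNA, and their relatives showed the same split between flox libraries. Oas1a was at 11.3, 14.5 and 4.67 FPKM in flox against 4.26, 4.95 and 4.59 FPKM in HKO, so flox 1 and 2 were high and flox 3 lay within the HKO range (log2 fold change -0.93, SE 0.40). Oasl1 had the same order, with 14.7, 20.2 and 4.08 FPKM in flox against 5.97 to 8.18 FPKM in HKO. Oas2 and Oasl2 lay between 1.21 and 3.38 FPKM, with fold changes near 0. Isg15, the ubiquitin-like protein that is attached to other proteins, was at 30.2, 45.9 and 14.2 FPKM in flox against 16.4 to 22.9 FPKM in HKO. Usp18, the protease that removes ISG15 and restrains the receptor, was at 8.40 to 14.4 FPKM in flox against 8.35 to 9.37 FPKM in HKO. The conjugate and its protease were thus ordered differently over the flox libraries, flox 2 being highest for Isg15 and flox 3 for Usp18.

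The remaining type I members had small differences, or differences that rested on 1 library. Ifit1, Ifit2 and Ifit3 encode proteins that bind foreign RNA at its end or block its translation. Ifit3 was at 5.42 to 15.5 FPKM in flox against 6.32 to 6.96 FPKM in HKO (log2 fold change -0.47), and Ifit1 was near 0. Ifit2 had the highest fold change of all members (0.82, SE 0.58), which rested on flox 2, where it had 6 reads against 136 to 201 in the other libraries. Ifi44 was also lowest in flox 2 (0.162 FPKM against 0.797 to 1.18 FPKM elsewhere). Rsad2, which encodes the antiviral enzyme viperin, was at 0.903 FPKM in flox 2 and 2.13 to 2.59 FPKM in the other 5 libraries. Parp14, an ADP-ribosyltransferase and the longest gene of the group, had a log2 fold change of 0.30, and of -0.020 after removal of the length trend. Mx1, a dynamin-like antiviral GTPase that is defective in C57BL/6 mice, was at 0.895 to 1.13 FPKM in flox against 0.552 to 0.752 FPKM in HKO, without overlap, at an unadjusted p of 0.206 in limma. Mx2, annotated as a polymorphic pseudogene, had a log2 fold change of -0.015.

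Of the 3 gamma-type members of antigen processing, the groups separated for Tap1 and overlapped for Psmb8 and Psmb9. Tap1 (chr17:34187553-34197225, plus strand, protein-coding), a subunit of the transporter that brings peptides to MHC class I, was at 7.25, 8.10 and 5.71 FPKM in flox against 4.14, 3.55 and 4.03 FPKM in HKO. The log2 fold change was -0.76 (SE 0.21, limma adjusted p = 0.180, 0.000893 to 0.526 over the alternatives). Psmb8 and Psmb9 encode immunoproteasome subunits and lie next to Tap1. Psmb8 (chr17:34197721-34201454, plus strand) was at 18, 38.8 and 6.11 FPKM in flox against 6.89, 6.65 and 6.32 FPKM in HKO. The 2 highest values were those of flox 1 and 2, and flox 3 was the lowest of the 6, so the log2 fold change of -1.25 had an SE of 0.60. Psmb9 had the same order, with 6.29, 9.56 and 3.05 FPKM in flox against 3.42 to 3.75 FPKM in HKO. Psmb9 and Tap1 overlap by 212 bases on opposite strands, and the sources used here do not say if counting was by strand.

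The GTPases of this class, which attack the vacuoles of intracellular pathogens, had no common direction. Iigp1, the most abundant, was at 32.7, 16.8 and 91.7 FPKM in flox against 31.9, 51.8 and 53.7 FPKM in HKO. The extremes were both flox libraries, flox 3 being highest and flox 2 lowest, and the difference on the log2 scale was 0.26 (SE 0.60). Igtp was at 19.3, 22.1 and 14.2 FPKM in flox against 11.3, 16.3 and 13.8 FPKM in HKO (log2 fold change -0.41, SE 0.25). It overlaps Irgm2 on the same strand, by 7974 bases, so reads from the pair may be shared. Irgm1 was at 1.85 to 3.43 FPKM in flox against 2.26 to 3.33 FPKM in HKO, with a log2 fold change of 0.025. Of the guanylate-binding proteins, Gbp2 was at 7.51, 7.80 and 2.18 FPKM in flox against 3.29 to 3.86 FPKM in HKO. Gbp3 and Gbp7 had the opposite order within flox, flox 3 being highest and flox 2 lowest, and Gbp7 had 18 reads in flox 2 against 141 to 199 elsewhere. Near-identical relatives (Gbp genes, Ifit3 and Ifit3b, Oas1a and Oas1g) can share reads, so values of single family members are uncertain.

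**Figure D3:**
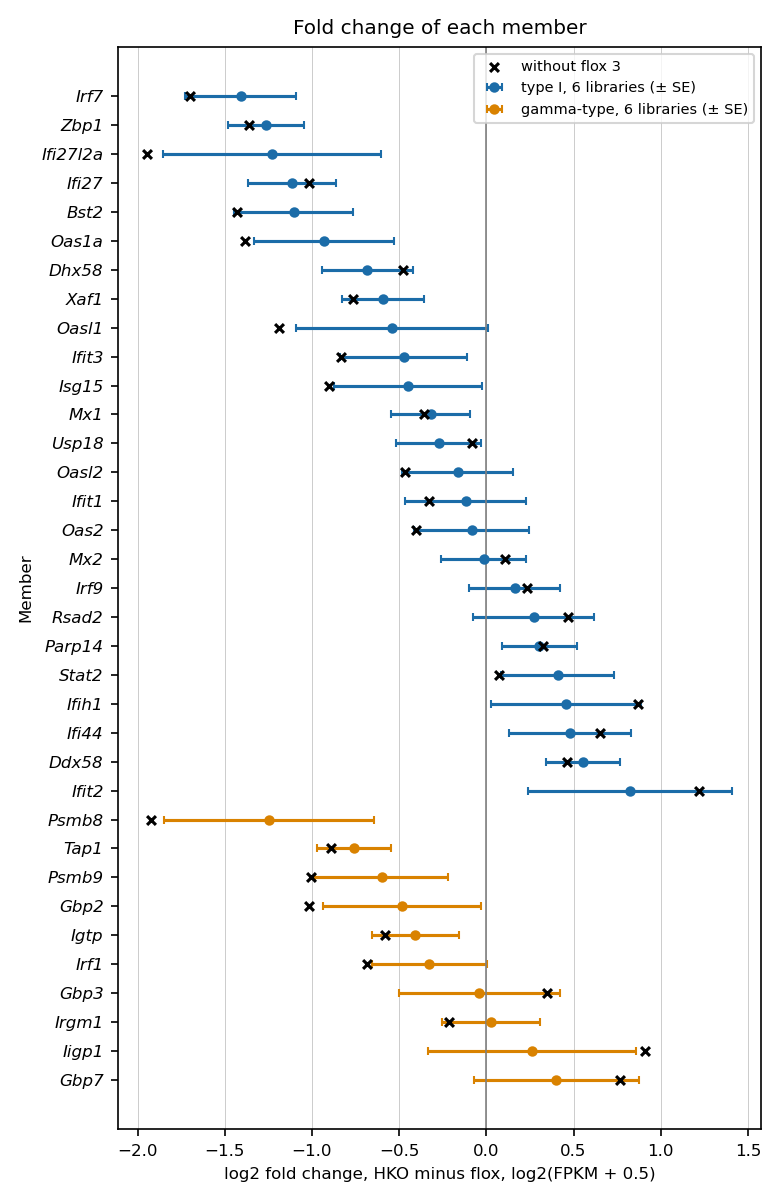
Log2 fold change (HKO minus flox, log2(FPKM + 0.5)) of each member with its SE over all 6 libraries, in blue for type I and orange for gamma-type members, and without flox 3 (crosses). Fold changes run from -1.41 for Irf7 to 0.82 for Ifit2, and the crosses of Oas1a, Oasl1, Ifi27l2a, Psmb8 and Gbp2 lie further below 0.

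The members differed in where flox 2 and flox 3 lay. A wider range in flox was common to all genes, with 89.2% of them and 32 of the 35 members. For 12 of the 35 members flox 1 and 2 lay above every library labelled HKO and flox 3 did not, against 17.0% of all genes. They were 7 of the 25 type I members (Ifi27l2a, Ifit3, Isg15, Oas1a, Oas2, Oasl1, Oasl2) and 5 of the 10 gamma-type members (Gbp2, Igtp, Irf1, Psmb8, Psmb9). Flox 2 was the lowest library for 9 members (38.3% of all genes) and flox 3 for 12 (21.8%). On the mean over members of the deviation from each gene's mean, the type I members stood at 0.36, 0.16 and -0.088 in flox 1, 2 and 3 and at -0.25, -0.049 and -0.14 in HKO 1, 2 and 3. The gamma-type members stood at 0.36, 0.18 and -0.064 in flox and -0.28, -0.087 and -0.11 in HKO. In both classes flox 1 was highest, flox 2 next and HKO 1 lowest. Flox 3 lay within the HKO range for the type I members and just above it for the gamma-type members.

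When each library was left out in turn, only the fit without flox 3 changed the calls. Without it, 15 members passed the adjusted threshold of 0.05 as lower and 0 as higher, where 19.4% of all genes passed as lower and 21.0% as higher. The 15 were 10 of the 25 type I members (Bst2, Ifi27, Ifi27l2a, Ifit3, Irf7, Isg15, Oas1a, Oasl1, Xaf1 and Zbp1) and 5 of the 10 gamma-type members (Gbp2, Irf1, Psmb8, Psmb9 and Tap1). Among these fits, Irf7 had a log2 fold change of -1.70 and Psmb8 of -1.92 (limma adjusted p = 0.0147 and 0.0152). At an unadjusted p under 0.05, 17 members were then lower (25.8% of all genes) and 3 higher, Ddx58, Ifih1 and Iigp1 (27.6%). Without flox 3 and with the length trend removed as well, 13 members passed as lower (17.2% of all genes) and 0 as higher (16.2%). Leaving out any other single library left 0 members past the adjusted threshold. Without flox 2, the library with the fewest detected genes, 7 members were lower (9.29% of all genes) and 0 higher (8.45%) at an unadjusted p under 0.05, and the median over the members was -0.20. Weighting the libraries by a precision estimated from these same data gave flox 2 and 3 the lowest weights, 0.172 and 0.108. The libraries labelled HKO had 1.60 to 2.91 and flox 1 had 4.75. The flox mean of that fit thus rested almost wholly on 1 mouse, and its calls do not measure the spread between flox mice. With these weights 19 members passed as lower (27.8% of all genes) and 2, Ddx58 and Ifih1, as higher (28.4%).

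**Figure D4:**
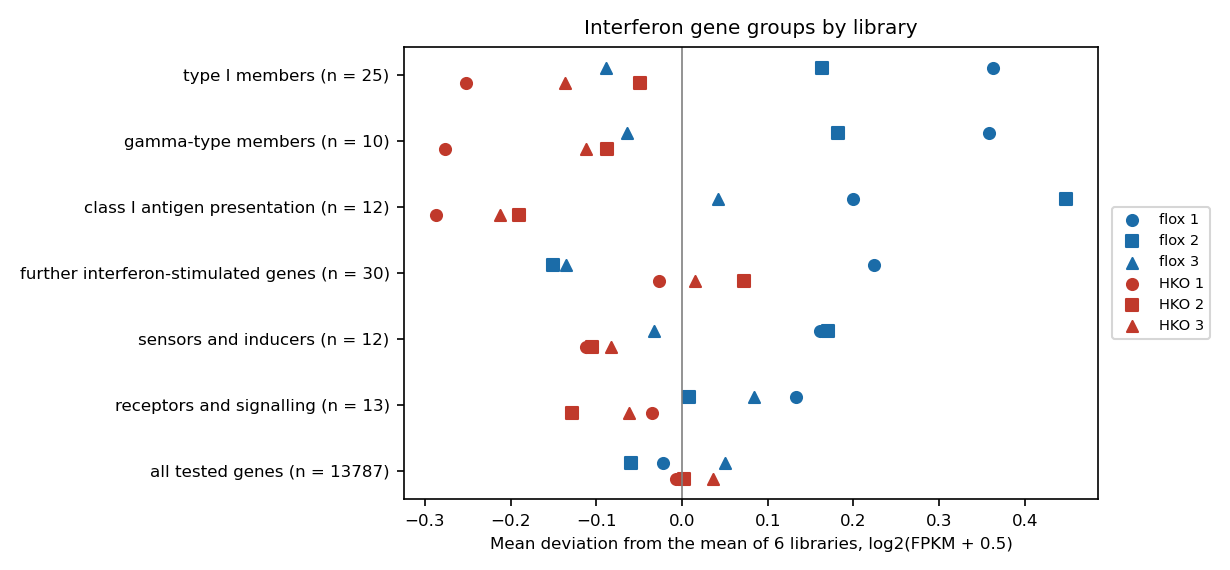
Mean deviation of each library from the mean of the 6 libraries, log2(FPKM + 0.5), over the type I and gamma-type members, over 4 further lists of interferon-related genes and over all tested genes. Flox 1 and 2 lie to the right for both classes of members and for class I antigen presentation, while flox 3 lies near the HKO libraries for the members.

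Fold change went with gene length. Across the 35 members, Spearman's rho between the log2 fold change and the length in the tables was 0.63, against 0.30 across all tested genes, where genes share the same 6 libraries and are not independent. The 17 members shorter than the median of 3646 bases had a median log2 fold change of -0.48, and the other 18 had 0.094. With each library's trend with length removed, these medians were -0.32 and -0.080, and rho was 0.45. The 4 shortest members were Ifi27l2a (463 bases), Isg15 (756 bases), Bst2 (903 bases) and Ifi27 (1467 bases). Their log2 fold changes of -1.23, -0.45, -1.11 and -1.11 became -0.98, -0.17, -0.82 and -0.85. Those of the longer Irf7 and Zbp1 were -1.41 and -1.24, and that of Tap1 moved from -0.76 to -0.90. The deviation of flox 2 from each member's mean had a rho of -0.55 with length, that of flox 1 -0.50 and that of flox 3 0.12, while in the libraries labelled HKO rho was 0.46 to 0.71. At an unadjusted p under 0.05, 6 members remained lower with the trend removed (Bst2, Ifi27, Irf7, Tap1, Xaf1 and Zbp1; 10.4% of all genes) and 0 higher (9.92%). Relative to the median of all genes, the members' median was -0.32 as deposited and -0.16 with the length trend removed.

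**Figure D5:**
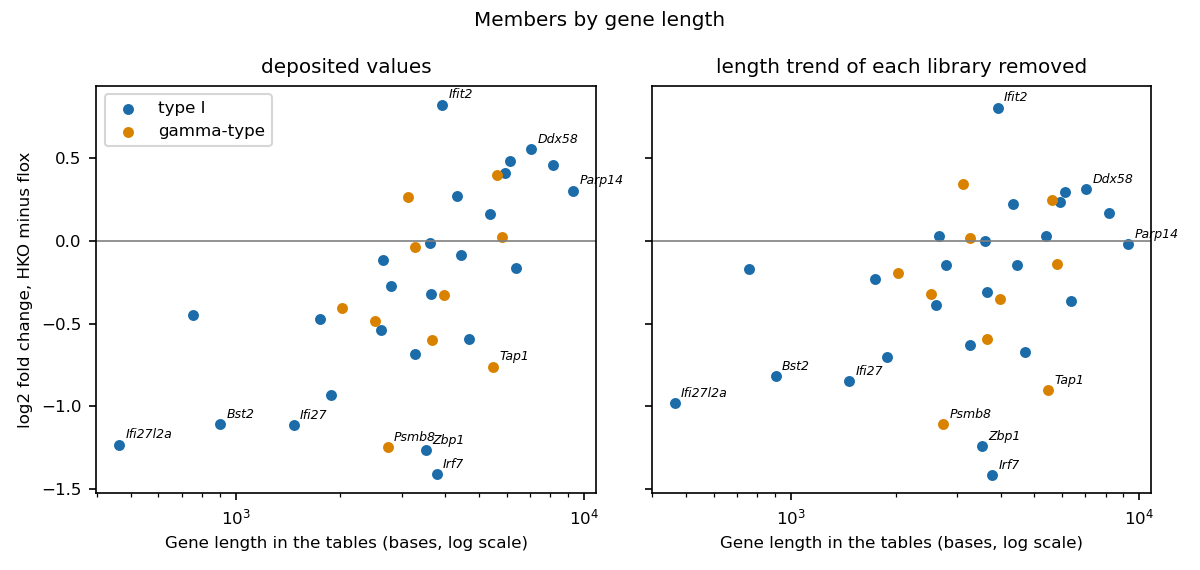
Log2 fold change (HKO minus flox) of each member against its gene length in bases (log scale), with the deposited values on the left and with each library's length trend removed on the right. Short members such as Ifi27l2a and Bst2 lie below 0 and the long members Ddx58 and Parp14 above 0 on the left; on the right Parp14 lies near 0, Irf7 and Zbp1 are little moved and Tap1 lies lower, at -0.90.

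The rest of the pathway was read from lists of other genes. Of 11 interferon genes, 8 (Ifnb1, Ifna1, Ifna2, Ifna4, Ifna5, Ifnz, Ifnl2 and Ifnl3) had no reads in any library and the others (Ifng, Ifnk and Ifne) had 2 to 4 reads over all 6, so ligands were not detectable at this depth and none was tested. Of 13 tested genes for receptors and signalling, 0 passed the adjusted threshold in either direction. At an unadjusted p under 0.05, 0 were higher (10.1% of all genes) and 3 lower (10.8%). These were Ifngr2, a subunit of the receptor for interferon gamma (11.3 to 14.3 FPKM in flox, 7.78 to 9.13 in HKO), Ifnar2, a subunit of the type I receptor (11.6 to 18.5 and 7.53 to 9.82 FPKM), and Socs3, an inhibitor of JAK signalling (4.49 to 6.68 and 2.61 to 4.59 FPKM). Over all tested genes of this list, the groups did not overlap with HKO lower for Ifngr2 and Ifnar2 (16.7% of all genes). With HKO higher this held for Jak1 (9.72 to 21.4 FPKM in flox, 22.3 to 25.8 FPKM in HKO, 15.3% of all genes).

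Of 12 tested sensors and inducers outside the members, 0 passed after adjustment. At an unadjusted p under 0.05, 2 were lower, Myd88 and Irf5 (10.8% of all genes), and 2 higher, Mavs and Tlr3 (10.1%). Myd88, the adaptor of most Toll-like receptors, was at 8.99 to 10.9 FPKM in flox against 5.31 to 5.92 FPKM in HKO. The transcription factor gene Irf5 was at 6.31 to 15.6 and 4.98 to 6.24 FPKM (log2 fold change -0.90, SE 0.34). Mavs, the mitochondrial adaptor of RIG-I and MDA5, was higher, at 13.1 to 19.0 FPKM in flox against 25.5 to 27.9 FPKM in HKO. Tlr3, a receptor for double-stranded RNA, was also higher, at 0.716 to 1.28 and 1.80 to 1.99 FPKM. Mavs and Tlr3 thus lay on the side of Ddx58, and Myd88 and Irf5 on that of Zbp1 and Dhx58.

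Of 12 genes of class I antigen presentation, 0 passed after adjustment. At an unadjusted p under 0.05, 5 were lower (10.8% of all genes) and 0 higher (10.1%). Fold changes were below 0 for 11 (50.1% of all genes), with a median of -0.60. With equal FPKM totals 9 were below 0 (30.1% of all genes). H2-D1, a classical class I heavy chain, was at 503, 654 and 553 FPKM in flox against 330, 347 and 347 FPKM in HKO. Tap2, the partner of Tap1 in the transporter, was at 5.77 to 12.3 FPKM in flox against 3.48 to 4.42 FPKM in HKO, and H2-T23, a non-classical class I chain, at 97.7 to 132 and 67.0 to 77.5 FPKM. These 3 genes were named for their small p. Over the whole list the groups did not overlap, with HKO lower, for them and for H2-K1, H2-Q4 and Tapbp (16.7% of all genes). No gene of the list was without overlap and higher in HKO (15.3% of all genes). Flox 3 lay above the libraries labelled HKO in H2-D1, Tap2 and H2-T23, as it did for Tap1. This did not hold for the whole list. In Psme1, Psmb10 and Psme2 flox 3 lay below every library labelled HKO, as for Psmb8 and Psmb9, and in the other genes of the list above them. A list of 30 tested further interferon-stimulated genes did not share this direction: 0 passed after adjustment, and the median was 0.19. At an unadjusted p under 0.05, 6 of this list were lower (10.8% of all genes) and 6 higher (10.1%). Its smallest p belonged to Dtx3l, the E3 ligase that works with PARP9, which was higher in HKO (4.11 to 7.92 FPKM in flox, 13.2 to 17.7 FPKM in HKO). The next was Lgals3bp, a secreted glycoprotein, which was lower (63.8 to 108 and 38.5 to 40.8 FPKM), and the third was Ifi203, a member of the p200 family, which was higher (1.03 to 2.17 and 2.95 to 3.63 FPKM). Of these 30, 13 fold changes were below 0 (50.1% of all genes) and 17 above. With equal FPKM totals 9 of the 30 were below 0 (30.1% of all genes).

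Markers of immune cells differed between the libraries as well. Their sums are to be read beside the total over all genes, 454792 to 553124 FPKM in flox against 350134 to 402169 FPKM in HKO. The summed level of the neutrophil markers S100a8, S100a9, Mpo and Ly6g was 18.9 to 43.9 FPKM in flox against 2.33 to 3.50 FPKM in HKO, with 3 of the 4 detected and Ly6g at 0 in every library. The 6 markers of macrophages and Kupffer cells, all detected, summed to 276 to 437 FPKM in flox against 154 to 253 FPKM in HKO. The list did not go one way: Clec4f, Cd68 and Csf1r had log2 fold changes of -0.71, -1.56 and -0.94, and Vsig4, Adgre1 and Timd4 of -0.065, 0.060 and 0.10. The 4 markers of plasmacytoid dendritic cells, all detected, summed to 167 to 404 FPKM in flox against 117 to 127 FPKM in HKO, nearly all of it from Bst2, itself a member. Siglech, another of the 4, was at 1.12, 1.29 and 0.675 FPKM in flox against 0.575, 0.644 and 0.365 FPKM in HKO, so flox 3 was again the lowest of its group. Tcf4 had the other direction as deposited, at 0.329, 0.331 and 0.737 FPKM in flox against 0.601 to 0.777 FPKM in HKO. It is a long gene (27382 bases), and its log2 fold change of 0.31 became -0.26 with the length trend removed. Ccr9 was at most 0.102 FPKM in any library. T cell markers (4 of 4 detected) summed to 0.534 to 3.48 FPKM in flox against 0.603 to 1.35 FPKM in HKO, lowest in flox 3. Markers of NK cells (5 of 5) summed to 0.561 to 3.69 and 1.18 to 1.77 FPKM, those of B cells (4 of 4) to 1.36 to 6.58 and 0.827 to 1.56 FPKM, those of monocytes (2 of 2) to 1.21 to 4.73 and 1.17 to 1.74 FPKM, and those of other dendritic cells (4 of 4) to 3.06 to 8.61 and 2.62 to 3.65 FPKM. Ptprc, found on all leukocytes, was at 0.638 to 0.973 FPKM in flox against 1.05 to 1.37 FPKM in HKO, the opposite order, but its log2 fold change of 0.36 became -0.12 with the length trend removed. The part of these cells in the members' levels was not tested.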

How the data were processed

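Per the labels' protocols, total RNA of flash-frozen livers was sequenced. Tools and build in the submitters' processing notes are TopHat2, HTSeq 0.6.1 and GRCm38.p6. The authors deposited FPKM values and gene lengths, 1 table per group. Their library sizes equalled median-of-ratios factors over all 6 libraries, so both tables share 1 scale. FPKM times length gave whole reads for 100% of values above 0 (tolerance 0.01 read).

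The 13787 genes averaging at least 0.5 FPKM were tested as log2(FPKM + 0.5) with limma 3.58.1 in R 4.3.3 (group model, moderation with trend, two-sided, Benjamini-Hochberg over all of them, threshold 0.05). Fold changes of low genes are understated on this scale. The members and gene lists were chosen with earlier results of these data known. Values per library are given for the 10 members with the smallest p, the 3 most abundant of each class and Stat2, Irf9, Irf7 and Irf1, and of each further list for the 3 genes with the smallest p; other members are given in part. The labels do not say that replicates share a litter or batch, and p-values measure the spread between these 6 mice. Length trends were removed by lowess (span 0.3) on log2 length. Alternatives were other pseudocounts, filters, scalings, moderation, a replicate block, protein-coding genes, voom on recovered reads, library weights and leaving out each library. Leaving out flox 2 or flox 3 together with removal of the length trend was added after seeing the data. The fit was tested on simulated data. Some results of the further lists are not reported here.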

Additional observations from a re-analysis of the deposited data

How the results depend on the processing

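The number of members past the adjusted threshold in limma (0 as reported, with 7 lower and 1 higher at an unadjusted p under 0.05) was 21 with library weights, 0 to 15 over the fits that left out a library (15 without flox 3), 13 without flox 3 and with the length trend removed, and 0 under the other settings run, voom (7 lower, 1 higher unadjusted) and a threshold of 0.1 included. The default estimate of the weights did not converge, so the gene-by-gene estimate was used, in which flox 1 carried most of the flox group. At an unadjusted p under 0.05 the number lower was 3 with equal FPKM totals, 20 with library weights, 5 to 17 over the fits without a library and 15 without flox 3 and the length trend. The number higher was 0 with quantile normalization, with the replicate block, with the length trend removed (with or without the block) and without flox 2 and the length trend, 2 with library weights, 3 with equal FPKM totals and 0 to 3 over the fits without a library. The median log2 fold change of all members was 0.065 with equal FPKM totals and -0.47 to -0.13 over the fits without a library. That of the type I members was 0.12 with equal FPKM totals, -0.14 with upper quartile scaling, -0.47 with library weights, -0.14 without flox 2 and the length trend, and -0.40 to -0.10 over the fits without a library. That of the gamma-type members was 0.033 with equal FPKM totals and -0.63 to -0.18 without a library. Same-numbered flox and HKO libraries deviated from their group means with correlations of -0.042, -0.090 and 0.070, and libraries of different number with -0.135 to 0.174. Same numbers thus did not go with higher correlations. So few libraries per group cannot show whether a litter or batch was shared. With the replicate block 0 members passed, 8 were lower and 0 higher unadjusted, and the adjusted p of Zbp1 was 0.304.

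Members that changed sign had reported log2 fold changes between -0.45 (Isg15) and 0.46 (Ifih1). They were, with equal FPKM totals, Igtp 0.00073, Usp18 0.12, Irf1 0.065, Oasl2 0.17, Ifit1 0.25, Oas2 0.26, Gbp3 0.28 and Mx2 0.31, and with upper quartile scaling Ifit1 0.0078, Oas2 0.033, Gbp3 0.071 and Mx2 0.097. With the length trend removed, and again with the replicate block added, they were Parp14 -0.020, Ifit1 0.028, Irgm1 -0.14 and Gbp3 0.019. With library weights they were Stat2 -0.023, Rsad2 -0.038, Irf9 -0.0022, Irgm1 -0.17 and Mx2 0.13. Irgm1 was -0.081 with quantile normalization, and Gbp3 was 0.0033 with a pseudocount of 0.1 and 0.017 with voom. Without flox 2 and the length trend they were Ifih1 -0.14, Isg15 0.077, Gbp7 -0.20, Rsad2 -0.12, Irf9 -0.081, Iigp1 -0.24 and Oas2 0.050. Without flox 3 and the length trend they were Parp14 -0.18, Stat2 -0.19, Usp18 0.11, Irgm1 -0.46, Gbp3 0.44 and Mx2 0.13. Over the fits without a library the range was -0.47 to 0.082 for Oasl2, -0.40 to 0.11 for Ifit1, -0.40 to 0.078 for Oas2, -0.57 to 0.35 for Gbp3, -0.14 to 0.77 for Gbp7, -0.10 to 0.47 for Rsad2, -0.021 to 0.31 for Irf9, -0.29 to 0.91 for Iigp1, -0.17 to 0.11 for Mx2 and -0.21 to 0.16 for Irgm1. For these changes the cause was not tested. A filter at 2 FPKM left 29 members, and protein-coding genes alone 34. Low counts limit Ifit2, Gbp7 and Ifi44 in flox 2.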
